A study of Homo sapiens with 10 samples.

Results

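The comparison described here was that of A549 cells kept in α-amanitin at 2 µg/mL for 24 h with A549 cells given DMSO, the solvent control. Its members were the 2 libraries labelled with that dose and the 2 DMSO libraries, chosen by label from 10 libraries in all, and everything the files list in them was used. A549 is an established lung adenocarcinoma line. The other 6 libraries came from cells given α-amanitin at 1 µg/mL for 24 h (2 libraries) or DRB at 10 or 25 µg/mL (2 libraries each), and the series was made to ask how splicing responds when transcription by RNA polymerase II is slowed. The length of the DMSO treatment was not given in the sources used here. The libraries were prepared from polyadenylated RNA with a directional kit. The replicates are labelled as bioreplicates, but whether they came from separate cultures is not stated, so the p-values below measure the spread between these libraries.

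α-Amanitin is the cyclic peptide toxin of the death cap mushroom. It binds the largest subunit of RNA polymerase II close to the bridge helix and slows the step by which the enzyme moves along DNA, and in cells it also leads to breakdown of that subunit, RPB1, which POLR2A encodes. Splicing takes place largely while the polymerase is still on the gene, so the speed of elongation can shift which splice sites are paired, and transcripts with short half-lives run down first when synthesis is limited.

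The deposited tables list, for each intron, split reads that join its donor to its acceptor and reads that run unspliced across the donor or the acceptor. For each exon they list reads that support its inclusion and reads that skip it. The split reads totalled 5418093 and 5925116 in the α-amanitin 2 µg/mL libraries, against 4297890 and 4765752 in the DMSO libraries. The α-amanitin libraries listed 83951 and 85597 introns, and the DMSO libraries 74739 and 75422. No intron was listed with fewer than 3 split reads. The paper also filtered split reads by how their positions were spread, by annotation status and by GT/AG splice sites. An intron that is not listed may have failed any of these limits and is not shown to be absent. Of 14 epithelial markers of A549, 9 passed the filter, with keratin genes KRT8 and KRT18 at 378 to 613 CPM (split reads scaled to a library total of 1000000) in all 4 libraries. Their combined split reads, not scaled for depth, were 20937 and 24018 in α-amanitin libraries and 20942 and 22171 in DMSO libraries. Most of these were reads of ALDH1A1, 12659 and 14749 in α-amanitin libraries and 14375 and 14824 in DMSO libraries. Scaled, the sums were 3952 and 4021 CPM in α-amanitin libraries, below the 5080 and 4783 in DMSO libraries. Of the 9, 4 had a positive and 5 a negative log2 fold change, and 1 was called lower, beside 3.81% of all genes. No split read was listed in these 4 libraries for any of 8 leukocyte markers or 5 endothelial markers. The other 5 of the 14 epithelial markers had no listed split read either, so an unlisted marker does not show that its cells were absent. Of 9 fibroblast markers only COL1A1 was listed, with 448 and 169 reads in α-amanitin libraries and 677 and 59 in DMSO libraries, so its level differed as much within a group as between groups.

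Split reads were summed over the introns of each gene and compared with limma voom, in a fit that also held the α-amanitin 1 µg/mL libraries, with p-values adjusted over 9662 genes. At an adjusted p below 0.05, 599 genes (6.2% of those tested) differed, of which 231 (2.39%) were higher and 368 (3.81%) were lower in α-amanitin. The call depends on how well the spread is known. In limma voom without DMSO replicate 1 or without DMSO replicate 2 the count was 0, although 1827 and 1773 genes still had an unadjusted p under 0.05. It was 1 without α-amanitin replicate 1, 394 without α-amanitin replicate 2, and 0 (2431 at an unadjusted p under 0.05) with only the 4 libraries of the comparison in the fit. All 599 genes kept their direction in each of these fits. When libraries were scaled by total split reads, 309 genes were higher and 296 lower, so the excess of falls over rises rests on the scaling. Values are relative to each library's own total, and a fall shared by all transcripts would not be seen. Fold changes are α-amanitin 2 µg/mL over DMSO throughout, on the log2 scale, and gene levels are split-read CPM, which are not divided by the number or length of a gene's introns and so are not compared between genes.

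POLR2A, the gene for the subunit that α-amanitin binds, rose. It had 737 and 530 CPM in the α-amanitin 2 µg/mL libraries, against 191 and 145 in the DMSO libraries (log2 fold change 1.91, SE 0.24, adjusted p 0.019, limma voom). The groups did not overlap, which was also so in 31.3% of all genes tested with α-amanitin higher and in 27.3% with α-amanitin lower. Over the dose series the mean of POLR2A was 168 in DMSO, 427 at 1 µg/mL and 633 at 2 µg/mL. None of the other 11 subunit genes of RNA polymerase II passed the test, and the median of the 12 was 0.05, the same as the 0.05 over all genes tested. No member passed among 19 genes for RNA polymerase I and III subunits (median −0.09) or among 30 tested genes for general transcription factors (median 0.14). Of 27 pause-release and elongation genes, 3 rose, beside 2.39% of all genes higher. SUPT5H, which encodes the elongation factor SPT5, had 771 and 646 in α-amanitin libraries and 473 and 478 in DMSO libraries (log2 0.57, adjusted p 0.035). CTR9, a PAF1 complex scaffold, changed by 0.62 and CCNK, the cyclin of CDK12 and CDK13, by 0.72. LARP7, which holds the inhibitory 7SK particle together, fell by 0.68. Of 14 Integrator subunits, which cleave nascent RNA at snRNA genes and paused genes, INTS3 fell by 1.81, with 33.8 and 53.2 in α-amanitin libraries against 151 and 151 in DMSO libraries, and INTS14 fell by 0.78. These 2 were the only calls on that list, beside 3.81% of all genes lower. Of 30 Mediator genes tested, MED14, the backbone subunit, rose by 1.06. SLCO1B3, the only gene tested of 3 listed uptake carriers for the toxin, had 32.5 and 43.0 in α-amanitin libraries and 51.9 and 53.9 in DMSO libraries (adjusted p 0.152).

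**Figure D1:**
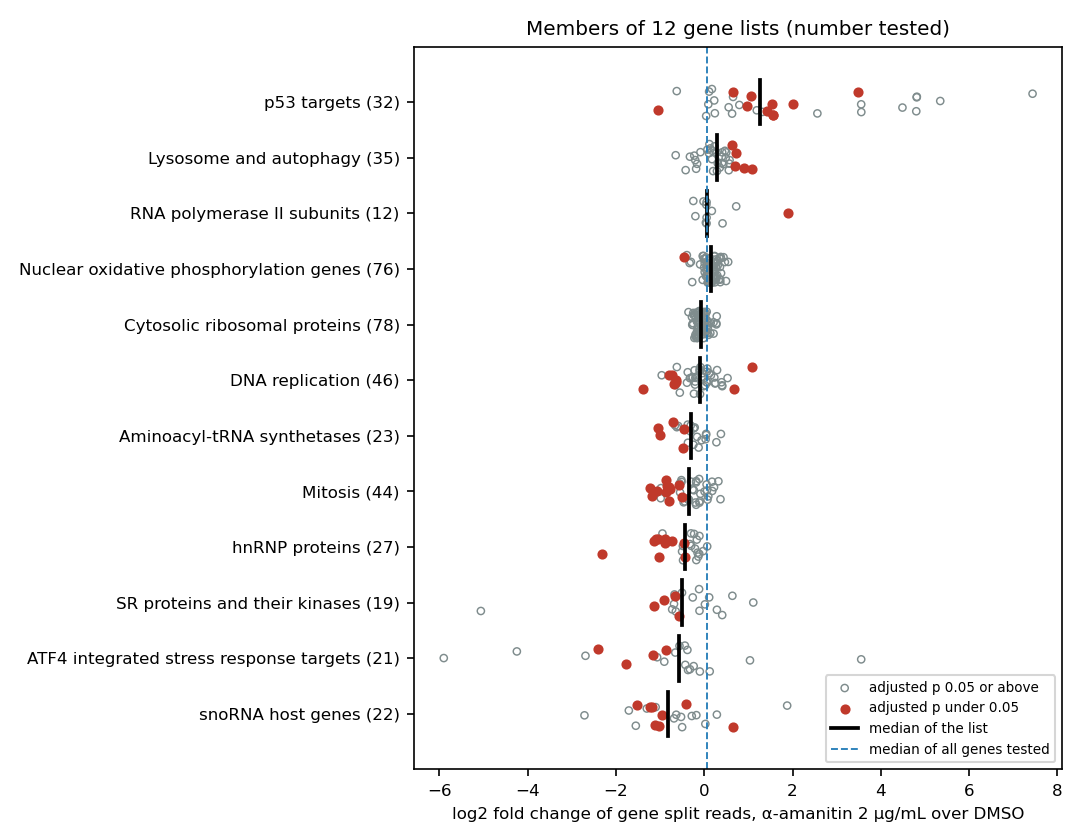
Each point is a gene of 1 of 12 lists (number tested in parentheses), placed on the x axis by its log2 fold change of split reads, α-amanitin 2 µg/mL over DMSO. Filled red points had an adjusted p under 0.05 in limma voom, black bars mark each list's median, and the dashed line marks the median of all 9662 genes (0.05). The p53 target list has its median at 1.26 and the snoRNA host list at −0.82. Points beyond about 4 on either side are genes with few or no split reads in a group, and their position depends on the small count that voom adds.

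Several genes that p53 activates rose. Of the 38 on the list, 32 were tested, 9 rose, 1 fell and 22 were not called, beside 2.39% of all genes higher, with a median of 1.26 against 0.05 over all genes. The median was between 1.04 and 1.22 when single libraries were left out. It stayed at 1.26 when the 4 members with no DMSO read were set at a floor of 3 reads per library. A median does not depend on how far above it such members lie, so this shows little. Over introns listed in every library the median was 0.71 for 23 members, of which 14 rose and 1 fell. In that fit 595 of all 7452 genes were higher and 663 lower. CDKN1A, which encodes the cell cycle inhibitor p21, had 51.9 and 45.4 CPM in α-amanitin libraries against 9.70 and 14.0 in DMSO libraries (log2 2.02, SE 0.30, adjusted p 0.024, limma voom). TNFRSF10D, a decoy receptor for the death ligand TRAIL, had 148 and 117 against 6.31 and 19.2 in DMSO (log2 3.48, SE 0.52, adjusted p 0.024). Neither of these genes had overlapping groups. FDXR, which passes electrons to mitochondrial P450 enzymes, had 217 and 186 against 66.5 and 72.7 in DMSO (log2 1.53, SE 0.13). MDM2, the ubiquitin ligase that turns p53 over, had 84.4 and 103 against 46.8 and 43.8 in DMSO (log2 1.05). The other rises were POLH (1.55), the polymerase that copies past UV lesions, XPC (1.56) and DDB2 (0.65), both of which recognise damaged DNA, and TNFRSF10A (1.42) and TNFRSF10B (0.96), the signalling TRAIL receptors. PLK2, a polo-like kinase on the same list, fell by 1.05, with 91.9 and 113 in α-amanitin libraries and 194 and 233 in DMSO libraries.

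Several transcripts of RNA-binding proteins that regulate splicing fell. Of 27 hnRNP genes tested, 10 fell, none rose and 17 were not called, beside 3.81% of all genes lower. Of the 27, 26 had a negative log2 fold change, and the median was −0.44. Their summed level was 14617 and 15904 CPM in α-amanitin libraries, against 21288 and 20118 in DMSO libraries. HNRNPDL had 57.2 and 93.9 in α-amanitin libraries against 384 and 349 in DMSO libraries (log2 −2.31, SE 0.20, adjusted p 0.011, limma voom). HNRNPA1, a repressor of splice sites, had 1335 and 1477 against 3371 and 2872 in DMSO (log2 −1.14, SE 0.10, adjusted p 0.011). HNRNPL fell by 1.09, HNRNPH3 by 1.04, HNRNPR by 1.02 and PTBP1, the polypyrimidine tract binding protein, by 0.90. The medians with single libraries left out lay between −0.45 and −0.25. Over introns listed in every library 12 fell with a median of −0.37, beside 663 lower and 595 higher of all 7452 genes in that fit.

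Of 19 genes for SR proteins, which bind exonic enhancers and recruit the spliceosome, and their kinases, 4 fell, none rose and 15 were not called. Over all genes 3.81% were lower. A positive log2 fold change was found in 6 of the 19. The median was −0.50, between −0.49 and −0.28 with single libraries left out and −0.22 over introns listed in every library. Without α-amanitin replicate 2, 2 of the 19 were called. SRSF3 had 254 and 361 CPM in α-amanitin libraries against 613 and 734 in DMSO libraries (log2 −1.14, adjusted p 0.026, limma voom). SRSF10 fell by 0.91, SRSF1 by 0.66 and SRSF2 by 0.58. Among 47 core spliceosome genes the median was −0.001, with 4 falls and 2 rises, beside 3.81% of all genes lower and 2.39% higher. SF3B3, a subunit of the U2 snRNP, had 188 and 217 against 465 and 460 in DMSO (log2 −1.19, adjusted p 0.011), and SNRPA, the U1-A protein, fell by 0.86. SLU7, a factor of the second splicing step, rose by 0.78 and SNRNP70, the U1-70K protein, by 0.47. Whether the median of the hnRNP genes differed from that of the core spliceosome genes was not tested. Of 16 nonsense-mediated decay genes, SMG9 fell by 2.01, MAGOHB fell by 1.18 and EIF4A3, a core subunit of the exon junction complex, rose by 0.55. The shares over all genes were again 3.81% lower and 2.39% higher. Of 24 acetyltransferase and deacetylase genes, KAT5, the catalytic subunit of the TIP60 complex, fell by 2.83, with 5.47 and 20.1 in α-amanitin libraries against 80.5 and 78.1 in DMSO libraries, and NCOA3 fell by 0.94.

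Host genes of snoRNAs, whose introns carry the guide RNAs for ribosomal RNA modification, had the lowest median of the lists, −0.82. Of 22 tested, 7 fell, 1 rose and 14 were not called, beside 3.81% of all genes lower and 2.39% higher. Without α-amanitin replicate 2, 4 fell and none rose. SNHG1 had 80.2 and 62.3 CPM in α-amanitin libraries against 174 and 158 in DMSO libraries (log2 −1.23, SE 0.15, adjusted p 0.017, limma voom). SNHG7 had 20.8 and 18.4 against 52.9 and 59.1 in DMSO (log2 −1.52). SNHG32 (−1.17), SNHG17 (−1.11), SNHG15 (−1.03), TAF1D (−0.96) and SNHG5 (−0.42) also fell. SNHG14 rose by 0.65, but over introns listed in every library its value was 0.25 with an adjusted p of 0.231. None of 78 cytosolic ribosomal protein genes passed the test, and their median was −0.08.

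Of 44 genes of mitosis tested, 11 fell, none rose and 33 were not called, beside 3.81% of all genes lower. A positive log2 fold change was found in 10 of the 44, and the median was −0.35, between −0.39 and −0.26 with single libraries left out. TOP2A, the topoisomerase that untangles sister chromatids, had 546 and 703 CPM in α-amanitin libraries against 1373 and 1554 in DMSO libraries (log2 −1.24, SE 0.15, adjusted p 0.017, limma voom). AURKA, the spindle pole kinase, had 46.2 and 73.2 against 122 and 147 in DMSO (log2 −1.19). The mitotic checkpoint kinase gene TTK fell by 1.07, CCNA2 by 0.87, PLK1 by 0.85 and CCNB1 by 0.77. In RNA from a whole culture, fewer cells in a stage and less RNA per cell cannot be told apart. Of 46 DNA replication genes, 6 fell, 2 rose and 38 were not called, beside 3.81% of all genes lower and 2.39% higher. Their median was −0.10. Without α-amanitin replicate 2, 3 fell and none rose. ORC2, of the origin recognition complex, fell by 1.38 and MCM7, of the replicative helicase, by 0.64. GINS4, a helicase cofactor, rose by 1.09. CHEK2, the checkpoint kinase, fell by 1.57 and was 1 of 2 falls among 30 homologous recombination and Fanconi genes.

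**Figure D2:**
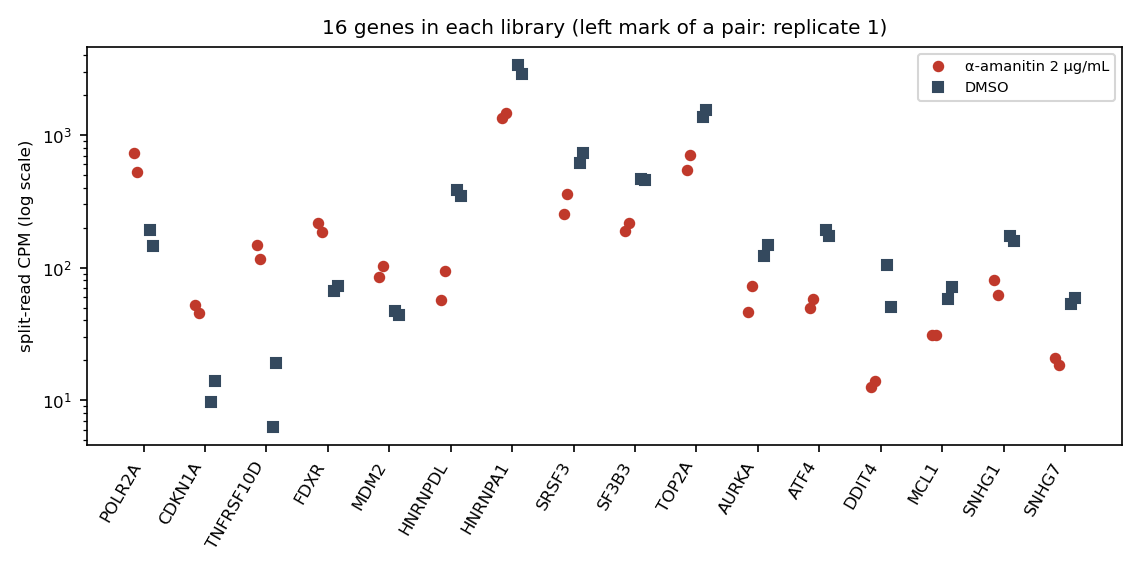
Split-read CPM (log scale) of 16 genes in the 2 α-amanitin 2 µg/mL libraries (red circles) and the 2 DMSO libraries (dark squares), with replicate 1 on the left of each pair. All 16 had an adjusted p under 0.05 in limma voom and none had overlapping groups. Over all 9662 genes, both α-amanitin libraries were above both DMSO libraries in 31.3% and below them in 27.3%. The spread between replicates was widest for TNFRSF10D and DDIT4 in DMSO.

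Some genes of amino acid supply and the integrated stress response fell. ATF4, the transcription factor of that response, had 49.3 and 57.9 CPM in α-amanitin libraries against 193 and 174 in DMSO libraries (log2 −1.77, SE 0.13, adjusted p 0.011, limma voom). Of 21 genes tested on the ATF4 list, which includes ATF4, 4 fell, none rose and 17 were not called, beside 3.81% of all genes lower. The median was −0.56, between −0.87 and −0.42 with single libraries left out, and 2 of the 21 were called without α-amanitin replicate 2. DDIT4, an inhibitor of mTORC1, had 12.6 and 14.1 against 104 and 50.3 in DMSO (log2 −2.40, SE 0.51). STC2, a secreted calcium regulator, fell by 1.15 and XPOT, the tRNA exporter, by 0.88. Of 23 aminoacyl-tRNA synthetase genes, 5 fell, none rose and 18 were not called, beside the same 3.81% of all genes lower. Their median was −0.31 and lay between −0.37 and −0.20 with single libraries left out. Without α-amanitin replicate 2, 3 were called. MARS1, the methionine enzyme, had 400 and 402 against 901 and 723 in DMSO (log2 −1.01) and AARS1, the alanine enzyme, had 324 and 281 against 780 and 509 in DMSO (log2 −1.06). Replicate 1 was the higher of the DMSO libraries for AARS1, MARS1 and DDIT4. HSPA5, which encodes the chaperone BiP, fell by 0.78 and was the only call among 20 genes of the endoplasmic reticulum. None of 23 heat shock genes passed the test.

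Of 27 immediate early genes and short-lived factors, 15 could be tested, 2 fell, none rose and 13 were not called, beside 3.81% of all genes lower. Their log2 fold changes were negative in 8 and positive in 7, with a median of −0.53, between −0.90 and −0.46 with single libraries left out. IER3, a stress-induced survival factor, had 12.8 and 16.1 CPM in α-amanitin libraries against 50.5 and 51.6 in DMSO libraries (log2 −1.81, SE 0.21, adjusted p 0.017, limma voom), and ID3, an inhibitor of helix-loop-helix factors, fell by 1.99. The genes that follow come from other lists and are no count of short-lived transcripts. MCL1, the survival protein with a short-lived mRNA and protein, had 30.8 and 31.0 against 58.0 and 72.0 in DMSO (log2 −1.07, adjusted p 0.028). It was the only call among 13 BCL2 family genes. CFLAR, which blocks caspase-8 at death receptors, fell by 1.00. The chemokine gene CCL2 fell by 2.19, the matricellular gene CCN1 by 1.47 and HMOX1, which degrades haem, by 1.94, with 26.6 and 50.9 in α-amanitin libraries against 146 and 142 in DMSO libraries. PFKFB3, an activator of glycolysis, fell by 1.18.

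Several lysosomal genes rose. Of 35 tested, 5 rose and none fell, beside 2.39% of all genes higher. The median was 0.29 and lay between 0.18 and 0.43 when single libraries were left out. Without α-amanitin replicate 2, 1 of the 35 was called. NEU1, the lysosomal sialidase, had 60.4 and 48.9 CPM in α-amanitin libraries against 23.8 and 27.0 in DMSO libraries (log2 1.08, SE 0.24, adjusted p 0.048, limma voom). MCOLN1, a lysosomal calcium channel, rose by 0.91, LAMP1 by 0.62, and the proton pump genes ATP6V0D1 and ATP6V1A by 0.72 and 0.69. The receptor tyrosine kinase genes EPHA2 and AXL rose by 1.14 and 0.79. On the list of YAP targets, 16 genes were tested, and 2 rose and 2 fell. Of 12 ERK phosphatases and feedback genes tested, 1 rose and 1 fell. Of 15 interferon-stimulated genes tested, 1 rose and 1 fell, and the rise was OAS3, an antiviral oligoadenylate synthetase, by 1.29. Of 76 nuclear genes of oxidative phosphorylation, none rose and 1 fell, with a median of 0.16, between 0.10 and 0.24 with single libraries left out. None of 24 cholesterol genes or of 57 zinc finger genes on chromosome 19 passed the test. The zinc finger genes had a median of 0.51 over all introns and −0.03 over introns listed in every library. The CDK11B gene, for a kinase that acts on the spliceosome, rose by 0.49.

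The genes with the largest rises were mostly ones whose introns were thinly covered in DMSO. The rule for named genes took the 12 highest rises, and these included TNFRSF10D, ELF4, TUBGCP4, NDRG1, CCP110, ACAP3, RC3H2, RNF123, HTT and UGGT2. ELF4 had 17.0 and 19.4 CPM in α-amanitin libraries and was listed at 0 in both DMSO libraries. NDRG1, a gene of the hypoxia response, had 55.9 and 46.4 against 5.58 and 9.06 in DMSO (log2 2.77), but over introns listed in every library its value was 0.15 with an adjusted p of 0.800. RC3H2, RNF123, UGGT2 and ACAP3 also missed the threshold over those introns. TNFRSF10D (2.58) and CCP110 (1.17) passed there. Among the 12 largest falls, HNRNPDL (−2.28), DDIT4 (−2.36), CCL2 (−2.14), KAT5 (−1.76), GFPT2 (−1.23), FHOD3 (−1.05), UNK (−1.03), MLLT10 (−1.02) and CPT1B (−0.99) passed over introns listed in every library, and ADAMTS10 (−0.62), ANKMY2 (−0.97) and PHTF1 (−0.44) did not. Reads of CPT1B can also come from the readthrough transcript with its neighbour CHKB, so its value is uncertain.

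A dependence on level ran through the whole table. In the lowest 20% of genes by mean level the median log2 fold change was 0.72 over all introns and −0.03 over introns listed in every library, while in the highest 20% it was −0.01 and 0.05. The share of genes called also depended on level. In the lowest 20% it was 0% higher and 0.05% lower, and in the highest 20% it was 4.35% higher and 7.76% lower. The shares over all genes are therefore a low comparison for lists of highly expressed genes. The α-amanitin libraries were the deeper ones and listed more introns, and the part of depth in these rises was not tested. The fit over introns listed in every library called 1258 of 7452 genes, with 523 of the 599 among them, all 523 in the same direction. By gene length, the longest 20% (above 92039 bases) had a median of −0.08 with 30 genes higher and 80 lower, and the shortest 20% (up to 11625 bases) had 0.07 with 22 higher and 66 lower.

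Intron retention was read at both splice sites, as the share of reads at a site that run across it unspliced. At the donor of 3991 annotated introns the median share was 5.22% and 3.68% in α-amanitin libraries, against 4.92% and 3.43% in DMSO libraries. At the acceptor of 4675 annotated introns it was 4.76% and 3.30% in α-amanitin libraries, against 4.10% and 3.02% in DMSO libraries. At both sites replicate 1 was above replicate 2 within each group, and the groups overlapped. At 1 µg/mL the medians were 6.37% and 4.83% at the donor and 5.31% and 4% at the acceptor, so they did not rise in the order of the doses. The exact permutation test over the 4 libraries gave a two-sided p of 0.667 at either site, where the smallest that 2 against 2 allows is 0.33. In the quasi-binomial test with limma, 2 of 4192 introns (0.0477%) passed an adjusted p of 0.05 at the donor, and 638 had an unadjusted p under 0.05. At the acceptor 0 of 4905 (0%) passed, and 711 had an unadjusted p under 0.05. No intron passed at both sites.

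Both donor calls were falls and both lay in the histone gene region of chromosome 6. In the intron of H2BC5 at chr6:26158788-26171202 (GRCh37), which leads from the histone H2B gene to a distant exon of a polyadenylated transcript, 60.5% and 68.9% of reads at the donor were unspliced in α-amanitin libraries, against 95.5% and 98.4% in DMSO libraries (adjusted p 0.043, quasi-binomial test with limma). The counts behind these shares show what moved. There were 47 and 50 split reads of that intron in α-amanitin libraries and 8 and 3 in DMSO libraries, whereas unspliced reads numbered 72 and 111 in α-amanitin libraries and 170 and 190 in DMSO libraries. The second intron, at chr6:27106461-27114187, matched no annotated gene and had 50.8% and 62.3% against 95.6% and 94.1% in DMSO (adjusted p 0.022). Neither call remained when any 1 of the 4 libraries was left out or when the fit held only these 4, where the count was 0.

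Of 2317 annotated introns measured at both sites, 164 (7.08%) had both α-amanitin libraries above both DMSO libraries at both sites, and 242 (10.4%) had them below. In 103 introns an unadjusted p under 0.05 was reached at both sites, 51 with more and 52 with fewer unspliced reads. None passed the adjusted threshold, and those named next were chosen after their values were seen, so they are a description of what lay at the edge. Since a site can be joined to other partners, the shares given are of all reads at the site, split reads to other partners included. Counted in this way, 49 of the 51 and 43 of the 52 kept an unadjusted p under 0.05 at both sites.

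In TCF25, a ribosome quality control gene, the intron at chr16:89960267-89961445 had 54.1% and 39.7% unspliced reads at the donor in α-amanitin libraries, against 8.45% and 10.6% in DMSO libraries. At its acceptor the shares were 66.4% and 52.0% in α-amanitin libraries and 12.2% and 22.2% in DMSO libraries (adjusted p 0.145 at the donor and 0.239 at the acceptor, quasi-binomial test with limma). DDX39B, which encodes the RNA helicase UAP56 of spliceosome assembly and mRNA export, had 51.8% and 42.6% at the donor of the intron at chr6:31500689-31503143, against 19.6% and 21.7% in DMSO. At the acceptor DDX39B changed less, with 22.1% and 11% against 8.33% and 6.60% in DMSO. Its paralog DDX39A had 31.1% and 18.9% at the donor of the intron at chr19:14520686-14521027, against 8.75% and 5.16% in DMSO. HNRNPH1 had 42.1% and 23.2% at the donor of the intron at chr5:179048399-179050037, against 15.4% and 11.0% in DMSO. In UBE2G2, COL7A1, ANAPC5 and SNHG1 the shares were also above DMSO at both sites. In each of these 8 introns replicate 1 of α-amanitin was higher than replicate 2 at both sites, the same order as in the medians over all introns.

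Among introns with fewer unspliced reads, PRPF4B, a kinase of the spliceosome, had 53.8% and 67.1% at the donor of the intron at chr6:4061382-4061888 in α-amanitin libraries, against 95.2% and 84.7% in DMSO libraries. At its acceptor it had 59.3% and 59.0% in α-amanitin libraries and 94.5% and 87.3% in DMSO libraries. LENG8 had 28.1% and 41.2% at the donor of the intron at chr19:54969701-54971945, against 53.1% and 62.7% in DMSO. ARGLU1, a splicing coactivator known for a retained intron, had 28.7% and 17.4% at the donor of the intron at chr13:107209480-107211779, against 62.1% and 55.9% in DMSO. SRSF1 had 51.6% and 72.4% at the acceptor of the intron at chr17:56081363-56082283 in α-amanitin libraries, against 93.1% and 90.8% in DMSO libraries. SAT1, DCAF8 and LAMB2 were also below DMSO at both sites. HNRNPDL, whose gene fell, had 18.2% and 5.26% at the donor of the intron at chr4:83346821-83347189 and 9.13% and 13.9% in DMSO, so its groups overlapped once all partners of the site were counted. In 140 introns of 56 genes on the RNA-processing lists, 7 were above and 11 were below DMSO at both sites, 5% and 7.86% of them, beside 7.08% and 10.4% over all such introns.

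**Figure D3:**
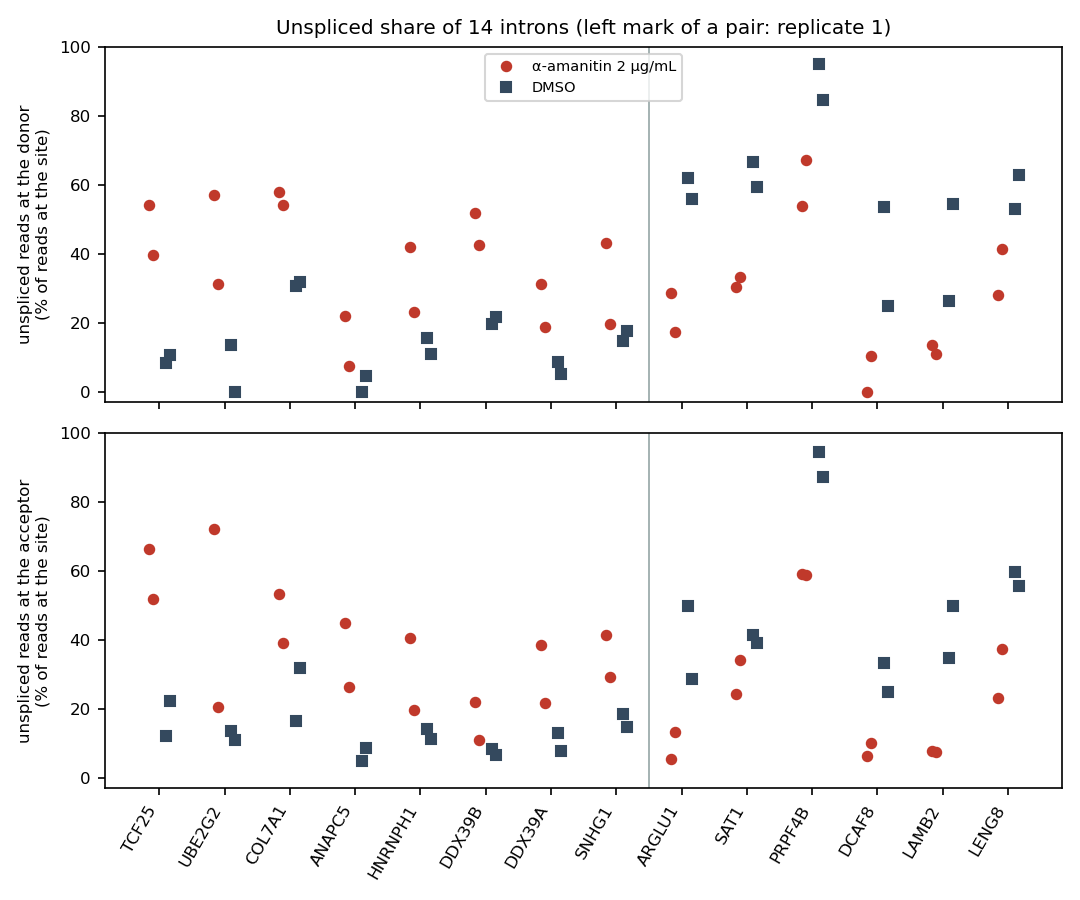
Share of reads at the donor (top) and at the acceptor (bottom) that run across the site unspliced, in percent of all reads at the site, for 14 introns named by gene, in the 2 α-amanitin 2 µg/mL libraries (red circles, left) and the 2 DMSO libraries (dark squares, right). The 8 introns left of the grey line had more unspliced reads in α-amanitin and the 6 on the right had fewer, with no overlap between groups. None passed the adjusted threshold.

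The splice sites of introns on either side of DMSO are given here to show what was read through, from the GRCh37 genome, with the first and last intron bases in capitals. Donors are shown with 3 exon and 6 intron bases, acceptors with 20 intron and 3 exon bases.
TCF25 donor, chr16:89960264-89960272, plus strand: gtgGTgcgt
TCF25 acceptor, chr16:89961426-89961448, plus strand: gctgtcctcccttctggtAGgtt
DDX39B donor, chr6:31503138-31503146, minus strand: gatGTaaat
DDX39B acceptor, chr6:31500686-31500708, minus strand: acccccttcctcccccccAGcca
SRSF1 donor, chr17:56082278-56082286, minus strand: atgGTatga
SRSF1 acceptor, chr17:56081360-56081382, minus strand: tggttttgctggttataaAGgtt
PRPF4B donor, chr6:4061379-4061387, plus strand: aagGTaagc
PRPF4B acceptor, chr6:4061869-4061891, plus strand: catgttgtctttcaatacAGgca
All of them begin with GT and end with AG. The introns above DMSO at both sites had a median length of 664 bases, and those below DMSO one of 442 bases, against 431 bases over all 2317.

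Exon inclusion Ψ was computed as inclusion reads over inclusion reads plus 2 times the skipping reads. Of 10341 exons tested, 3 (0.029%) passed an adjusted p of 0.05 in the quasi-binomial test with limma, all 3 in RPS24, a ribosomal protein gene whose short exons near the stop codon are spliced in a cell-type-dependent way. The 3 exons end at the same base and share reads, so they count as 1 event. The 22-nt exon (chr10:79799962-79799983) had a Ψ of 0.0817 and 0.0804 in α-amanitin libraries, against 0.0352 and 0.0390 in DMSO libraries (adjusted p 0.035), from 977 and 1062 inclusion reads in α-amanitin libraries and 279 and 388 in DMSO libraries. At 1 µg/mL it was 0.0533 and 0.0547, between the other groups. The 25-nt entry that starts 3 bases upstream had 0.0488 and 0.0496 against 0.0209 and 0.0232 in DMSO (adjusted p 0.039). It rested on 563 and 634 inclusion reads in α-amanitin libraries. An unannotated exon of 628 bases had the same values from the same reads. These 2 entries share only their end, so the values can come from reads at the common donor alone. They do not show that a separate 25-nt form was included. The count was 0 without any 1 of the 4 libraries and 0 with only these 4 in the fit, and on simulated data with the larger of the spreads tried the test gave too many small p-values among the most deeply read exons, which include these. The level of RPS24 itself was 2439 and 2373 CPM in α-amanitin libraries and 2256 and 2300 in DMSO libraries (adjusted p 0.467, limma voom). The exon is printed with its flanks (GRCh37), the 25-nt form in capitals. The 22-nt form starts after the leading CAG, so its acceptor has the usual AG, whereas the bases before the 25-nt form are tt.
RPS24 25-nt exon, chr10:79799957-79799986, plus strand: ttCAGTGAGCTGGAGATTGGATCACAGgta

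Well-covered exons, those whose inclusion and skipping reads each averaged 20 or more over the 4 libraries, numbered 1098 in 424 genes. Both α-amanitin libraries were above DMSO in 278 (25.3%) and below it in 381 (34.7%), and the median change of Ψ was −0.0044. An unadjusted p under 0.05 was reached by 323, of which 124 gained and 199 lost inclusion. Changes were above 0.2 in 46 and below −0.2 in 71. By class, the median was −0.0063 in 623 coding exons, 0.0062 in 128 exons of 5′ untranslated regions and −0.0047 in 216 exons of noncoding transcripts. Coding exons of a length divisible by 3 had a median of −0.0039 (321 exons) and other coding exons −0.0090 (302 exons).

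Larger changes of Ψ were found in other exons, and none of those named next passed the adjusted threshold. Of the genes of the 16 exons outside RPS24 and the ZNG1C paralogs that the rule named, 3 had passed the test of gene level (PARD3, RBM4 and LGALS8). In DLGAP5, a mitotic spindle gene, the 91-base exon at chr14:55615312-55615402 had a Ψ of 0.825 and 0.608 in α-amanitin libraries, against 0.216 and 0.0769 in DMSO libraries (adjusted p 0.099, quasi-binomial test with limma). DLGAP5 had 257 and 297 CPM in α-amanitin libraries and 296 and 341 in DMSO libraries. ANKRD11, a chromatin regulator, had 0.685 and 0.545 against 0.155 and 0.176 in DMSO. SUGT1, an HSP90 cochaperone, had 0.728 and 0.602 against 0.252 and 0.278 in DMSO. MAP3K7, the kinase TAK1, had 0.593 and 0.567 against 0.341 and 0.204 in DMSO. PARD3 is an example of how thin the counts can be, with 31 inclusion and 0 skipping reads in α-amanitin replicate 1 and 38 and 17 in replicate 2.

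Among losses, CRYZ, a quinone reductase, had 0.315 and 0.299 in α-amanitin libraries against 0.805 and 0.697 in DMSO libraries for the 102-base exon at chr1:75172787-75172888 (adjusted p 0.063, quasi-binomial test with limma), with 0.526 and 0.567 at 1 µg/mL. DEPDC1, a mitotic gene, had 0.0690 and 0.224 against 0.689 and 0.634 in DMSO for its 852-base exon. LGALS8, a galectin, had 0.236 and 0.225 against 0.532 and 0.610 in DMSO. MAIP1 had 0.326 and 0.388 against 0.740 and 0.711 in DMSO, and MLX, the partner of the glucose-sensing factor MondoA, had 0.257 and 0.33 against 0.536 and 0.712 in DMSO. In all 5 the DMSO libraries stood apart from the α-amanitin libraries. An 88-base exon of the near-identical paralogs ZNG1C, CBWD5 and CBWD7 had 0.233 to 0.265 in α-amanitin libraries and 0.522 to 0.619 in DMSO libraries, but the reads cannot be placed in 1 copy with certainty.

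**Figure D4:**
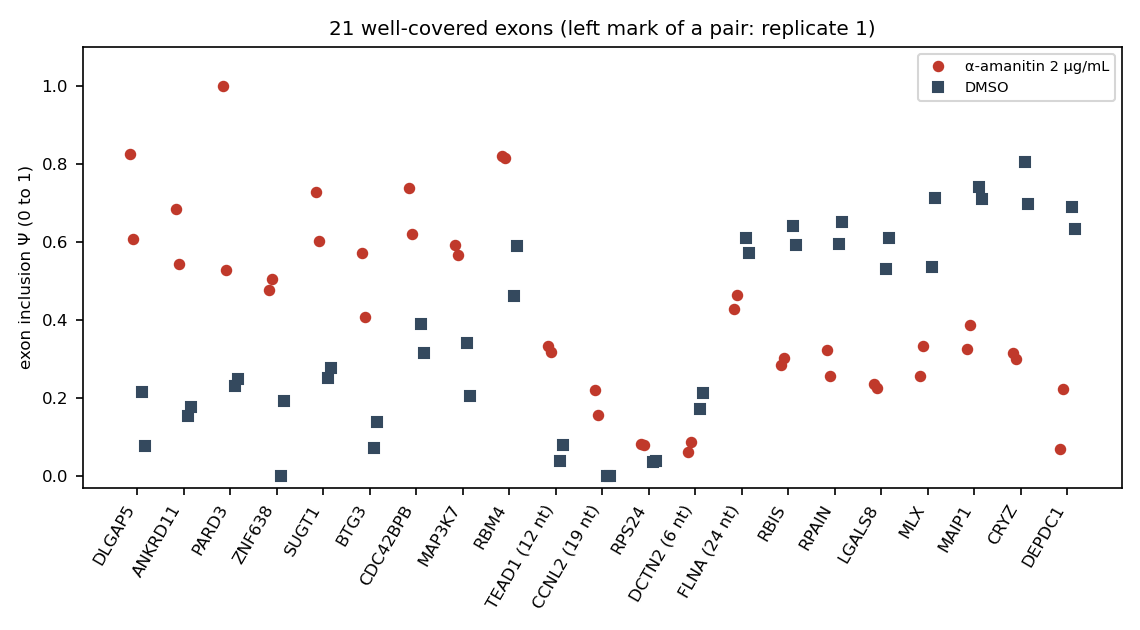
Exon inclusion Ψ, from 0 to 1, of 21 well-covered exons in the 2 α-amanitin 2 µg/mL libraries (red circles, left) and the 2 DMSO libraries (dark squares, right), ordered by the change of Ψ from gains to losses. The groups do not overlap in any of the 21, but all except the RPS24 exon were chosen for this or after their values were seen. Over all 1098 well-covered exons, 25.3% were above and 34.7% below DMSO without overlap. Among those plotted, the adjusted threshold was passed by the RPS24 exon alone, whose values are among the lowest on the plot.

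Exons of up to 30 nt numbered 50 in 44 genes, with 12 above and 19 below DMSO, beside 25.3% above and 34.7% below over all well-covered exons. The 12-nt exon of TEAD1, the DNA-binding partner of YAP, had a Ψ of 0.33 and 0.318 in α-amanitin libraries, against 0.0385 and 0.0805 in DMSO libraries. The 19-nt exon of CCNL2, a cyclin that regulates splicing, had 106 and 39 inclusion reads in α-amanitin libraries (Ψ 0.222 and 0.157). In DMSO libraries it was listed with 0 inclusion reads beside 94 and 76 skipping reads. No intron was listed with fewer than 3 split reads, so this 0 does not show that the exon was never included. The 7-nt segment annotated as an exon in SELENOF had 0.743 and 0.758 against 0.510 and 0.596 in DMSO. The genome has ta after this segment and not the GT of a donor, so its Ψ is not shown to be that of a 7-nt exon. The 6-nt exon of AP2M1, a clathrin adaptor subunit, had 0.726 and 0.690 against 0.602 and 0.607 in DMSO. Lower values were found for the 6-nt exon of DCTN2, a dynactin subunit, with 0.0616 and 0.0871 against 0.172 and 0.214 in DMSO, and for the 24-nt exon of FLNA, the actin crosslinker filamin A, with 0.428 and 0.464 against 0.610 and 0.571 in DMSO. None of these 6 passed the adjusted threshold. The sequences of 4 of them show how short the included segments are (GRCh37, exon in capitals, flanking intron in lower case).
TEAD1 12-nt exon, chr11:12900427-12900456, plus strand: tgtatccagGTAACAAGCATGgtaagtatt
AP2M1 6-nt exon, chr3:183898421-183898450, plus strand: tgcggcctccagCATCAGgtaagctcttcc
DCTN2 6-nt exon, chr12:57932290-57932319, minus strand: ggaaaccacaagGAGCTGgtaagaagcctg
FLNA 24-nt exon, chrX:153585616-153585645, minus strand: cagTGTCAATCGGAGGTCACGGGCTAGgta

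Within the RNA-processing genes the exons of the hnRNP genes stood below DMSO more often than above. Of 50 well-covered exons in 12 hnRNP genes, 27 were below and 6 above DMSO, with a median change of Ψ of −0.062, against 34.7% below and 25.3% above over all well-covered exons. Many of these exons overlap or share a splice site, so they are not independent. In HNRNPC the 26-nt exon had 0.455 and 0.561 in α-amanitin libraries and 0.631 and 0.667 in DMSO libraries. Of 10 exons in 5 SR protein genes, 5 were above and 0 below DMSO, with a median of 0.021. No exon of either list passed the adjusted threshold in the quasi-binomial test with limma, where the lowest adjusted p was 0.099 for the hnRNP exons and 0.119 for the SR exons.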

How the data were processed

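Libraries of polyadenylated RNA were sequenced and aligned by the authors, with STAR 2.7.3a named in the submitters' notes, and read with IPSA on GRCh37. The deposited GFF tables hold counts of reads in a text field per intron and exon, not normalized. Gene names and exon classes came from GENCODE v44lift37. Split reads were summed per gene. Genes with 10 reads in at least 2 of 6 libraries and 15 in all were tested with limma 3.58.1 (voom, TMM scaling written for this work), in a fit with the α-amanitin 1 µg/mL, 2 µg/mL and DMSO libraries. Retention (unspliced against split reads, at least 20 per library) and inclusion were tested with a quasi-binomial model whose spread was moderated by squeezeVar of limma with a floor of 1. A trend of that spread with depth was added after results had been seen, because the test without it made too many calls on simulated data. Adjusted p-values are Benjamini-Hochberg over all features. The members and gene lists were chosen with earlier results of these data known. Named were the 12 largest changes per direction with at least 50 reads and up to 4 members per list, the 8 introns and 10 exons per direction with the largest changes, and further ones chosen after their values were seen; some items that the rule names are not reported here. Alternatives were other scalings, filters, sets of libraries and a replicate block. Counting intervals were not used, since the spread between libraries exceeded counting error (chi-squared per degree of freedom over genes 12.8 in α-amanitin 2 µg/mL and 10.8 in DMSO).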

Additional observations from a re-analysis of the deposited data

How the results depend on the processing

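Of the gene counts, the main one was 599. It was 1258 over introns listed in every library, where the direction was kept by 588 of the 592 genes with a value. It was 0 with only the 4 libraries in the fit and 0 to 394 without single libraries, with the direction kept by all 599. The replicate numbers are shared by only 2 pairs per comparison, so no pairing is taken from them. Same-numbered libraries deviated together (correlation 0.41 over 5956 genes between α-amanitin 2 µg/mL and DMSO), and a replicate block raised the count to 2141, all 599 among them. Of 109 named genes past the threshold, none was reversed under any setting; 94 of 105 kept the call over introns listed in every library and 65 of 109 without α-amanitin replicate 2, but only 1 of 109 without α-amanitin replicate 1 and 0 of 109 without DMSO replicate 1, without DMSO replicate 2 or with only the 4 libraries. The donor count was 2. It was 0 without any single library, with only the 4 libraries, with the replicate block, and with only introns whose sites no other intron uses, 5 with all 10 libraries and 1 with all split reads of the site. Between libraries of the same number, which are not treated as pairs here, the median unspliced share was the higher in α-amanitin at both sites, for both numbers. The median change per intron tested, in log2 odds of an unspliced read, had the other sign, −0.15 at the donor and −0.07 at the acceptor. That sign depended on single libraries. With single libraries left out this median lay between −0.27 and 0.02 at the donor and between −0.21 and 0.07 at the acceptor. The acceptor count and the count at both sites were 0 in every setting run. The count of well-covered exons was 3, the RPS24 exons. It was 0 without any single library, with only the 4 libraries and with the replicate block. With all 10 libraries it was 1, a loss of inclusion and so none of these 3, and 4 of 12342 exons passed in all. With limma on log2 odds of inclusion it was 3, but 414 of all 10341 exons passed. Without a trend of the spread with depth the counts were 2, 0, 0 and 3. This trend and the denominator with all split reads were chosen after seeing the data. Depth limits what can be seen in introns and exons with few reads: most named introns rest on under 100 unspliced reads per library.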
